A study of Mus musculus with 23 samples.

Results

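The comparison described here is the difference between Grin2b mutant heterozygotes and their wild-type counterparts, taken over control and foot-shocked mice together. All 23 labelled RNA-seq libraries of the series entered it, 12 from heterozygotes (HT) and 11 from wild-type mice (WT), with the treatment as an additive term. The 4 groups were WT control (6 libraries), WT shock (5), HT control (6) and HT shock (6), each library carrying its own sample label. All mice were male C57BL/6J, and the labelled tissue was brain with no region named. The sample labels give postnatal day 17, whereas the design text of the series speaks of adult ages. The series title names the allele as Grin2b-C456Y, and the design text calls the mutants heterozygous. Nothing in the labels says that replicates came from separate animals, so the p-values measure the spread between these samples.

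Grin2b encodes GluN2B, a subunit of the NMDA receptor, the glutamate-gated calcium-permeable channel that couples synaptic activity to plasticity. GluN2B dominates forebrain NMDA receptors early in life and is partly replaced by GluN2A as circuits mature. GRIN2B variants in people are known causes of neurodevelopmental disorder. The gene lies at chr6:135713233-136173511 on GRCm38, minus strand, in GENCODE M21. The deposited table counts whole genes, so the share of transcripts from the mutant allele was not analysed here.

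Expression was deposited as normalized counts, and all values below are normalized counts or differences of log2(normalized count + 1), heterozygote minus wild type, with the standard error (SE) of the fit. A gene is said to be higher, lower, or to have passed where limma's adjusted p over the 17118 genes tested was under 0.05. Library totals, in units of 1e6 normalized counts, lay between 30.98 and 32.57 as deposited, and the sequencing depth is unknown. The first principal component held 12.9% of the variance. All 6 HT shock libraries lay on its positive side, from 11.4 to 26, and WT libraries lay between -18.5 and 1.63. HT control replicate 6 stood apart from its group at 31.3, where the other 5 HT control libraries lay between -12.7 and 5.17. Markers of many regions were present in every library, among them Tbr1 of cortex, Drd1 and Drd2 of striatum, Tcf7l2 of thalamus and Gabra6 of cerebellum, so the tissue was not a single dissected region. In such bulk tissue, fewer cells of a type and less RNA per cell cannot be told apart.

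Grin2b transcript was modestly lower in the heterozygotes. Its normalized counts were 9556 at the lowest, 11338 at the median and 14275 at the highest of the 12 HT libraries, and 10734, 13111 and 15225 in the 11 WT libraries. The ranges overlapped widely, with most HT shock libraries at the low end. Heterozygotes differed by -0.204 on the log2 scale (SE 0.056, limma adjusted p = 0.0228), a fold of 1.15. The difference was -0.156 (SE 0.082) in control libraries and -0.257 in shock libraries, and the interaction was far from the threshold (adjusted p = 0.873). The call held without each library in turn, with a highest adjusted p of 0.0455. It was lost after each library was corrected for transcript length and GC content, where the difference was -0.068 and the adjusted p was 0.184. The longest Grin2b transcript, at 24060 bases, is far longer than most in the table. The part that length plays in the Grin2b difference was not tested.

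The genotype difference over both treatments was broad and shallow. Of 17118 genes, 2257 (13.2%) passed: 855 (4.99%) were higher and 1402 (8.19%) lower in heterozygotes. The median absolute log2 difference of these genes was 0.167, and 53 of them differed by more than 1.5-fold. The share that passed rose with expression level, from 2.39% of genes with a mean of 10 to 30 to 29.5% of genes above 3000. The median difference of all genes tested was 0.004. Leaving out single libraries gave between 1446 and 3078 genes. The count fell by over 1.5 times without WT shock replicate 2 (1446), WT shock replicate 3 (1458) or HT shock replicate 3 (1503). A core of 1190 genes, 423 higher (2.47%) and 767 lower (4.48%), passed in the fit with all libraries and in all 23 fits without a library.

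**Figure D1:**
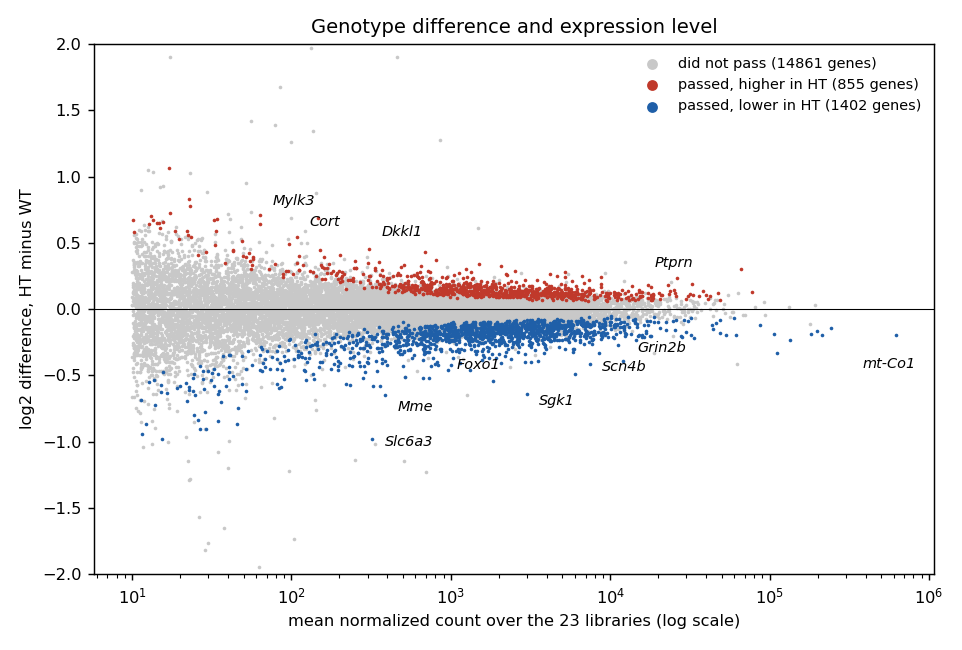
Each point is 1 gene: the horizontal axis is the mean normalized count over the 23 libraries on a log scale, and the vertical axis the log2 difference, HT minus WT, with 7 genes outside the axis range. The 855 higher (red) and 1402 lower (blue) genes mostly lie within 0.5 of zero, and highly expressed genes passed at smaller differences than weakly expressed ones.

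Transcript length and base composition moved with the direction of the difference. Genes that were higher had a median transcript length of 2494 bases and 55.4% GC, those that were lower 5531 bases and 44.9% GC, and all genes tested 3237 bases and 49.6%. Per-library slopes of expression on log2 length lay between -0.097 and 0.057 in HT libraries and between -0.006 and 0.055 in WT libraries. HT control replicate 6 had the lowest slope, and the other HT control libraries lay between -0.033 and 0.057. HT shock replicate 6 lay at 0.013, and all other HT shock libraries lay between -0.062 and -0.044. WT shock libraries lay between 0.002 and 0.044. Slopes on GC content were positive in every HT shock library and of both signs in WT shock libraries. With each library corrected for length and GC content, 1158 genes passed, 409 higher (2.39%) and 749 lower (4.38%), and 946 of the 2257 genes were among them. The part that length and composition play in the other genes was not tested. Counts after this correction are given below beside the gene groups, and their background is the 2.39% higher and 4.38% lower of all genes in that fit. For counts without the correction, the background is 4.99% higher and 8.19% lower of all genes. These shares depend on expression level. They were 11.5% and 18% of genes with a mean above 3000, and 0.955% and 1.43% of those from 10 to 30. Gene groups below were not matched to all genes by level.

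Among the genes with the smallest p-values, Foxo1, a forkhead transcription factor downstream of insulin and growth factor signals, ranged from 773 to 1027 with a median of 896 in HT libraries and from 985 to 1159 with a median of 1097 in WT libraries. It differed by -0.305 on the log2 scale (SE 0.039, limma adjusted p = 0.000348), with similar values in control (-0.279) and shock (-0.335) libraries. The overlap came from HT control replicate 4 at 1027, and the other 11 HT libraries lay below the lowest WT library. Ptprn, a transmembrane protein of dense-core vesicles, ranged from 17115 to 19659 in HT libraries (median 18141) and from 15184 to 17468 in WT libraries (median 16100). It was 0.18 higher (SE 0.024, limma adjusted p = 0.000467), by 0.18 in controls and 0.181 after shock. Vgf, the precursor of secreted neuropeptides, was 0.251 higher, with medians of 7262 in HT and 5950 in WT libraries. Cckbr, the receptor for brain cholecystokinin, was 0.279 higher, with medians of 1448 and 1209. Ppp1r16b, a regulatory subunit of protein phosphatase 1, had medians of 4987 and 5884 and a log2 difference of -0.212. Kctd9 (-0.297) and Etnppl (-0.359), the latter an astrocyte-enriched enzyme that breaks down phosphoethanolamine, were also lower. Each of these 7 genes passed without each library in turn and after the length and GC correction.

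Separation of all 12 HT from all 11 WT libraries was rare: 1 gene was higher (0.00584% of genes tested) and 4 were lower (0.0234%). Rtn4r, the Nogo receptor that restrains axon growth, ranged from 2150 to 2797 in HT libraries and from 1841 to 2147 in WT libraries, with medians of 2349 and 2043. Its log2 difference was 0.262 (SE 0.042, limma adjusted p = 0.00175). Rasd2, or Rhes, a small GTPase enriched in striatum, ranged from 2653 to 3495 in HT libraries and from 3597 to 4006 in WT libraries, with medians of 3308 and 3783. It differed by -0.243 (SE 0.037, limma adjusted p = 0.00151). Trp53bp2, a p53-binding regulator of apoptosis, ranged from 855 to 1063 against 1079 to 1155 and differed by -0.182. The remaining pair were the mitochondrially encoded mt-Nd1 and mt-Cytb, described with their genome below.

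**Figure D2:**
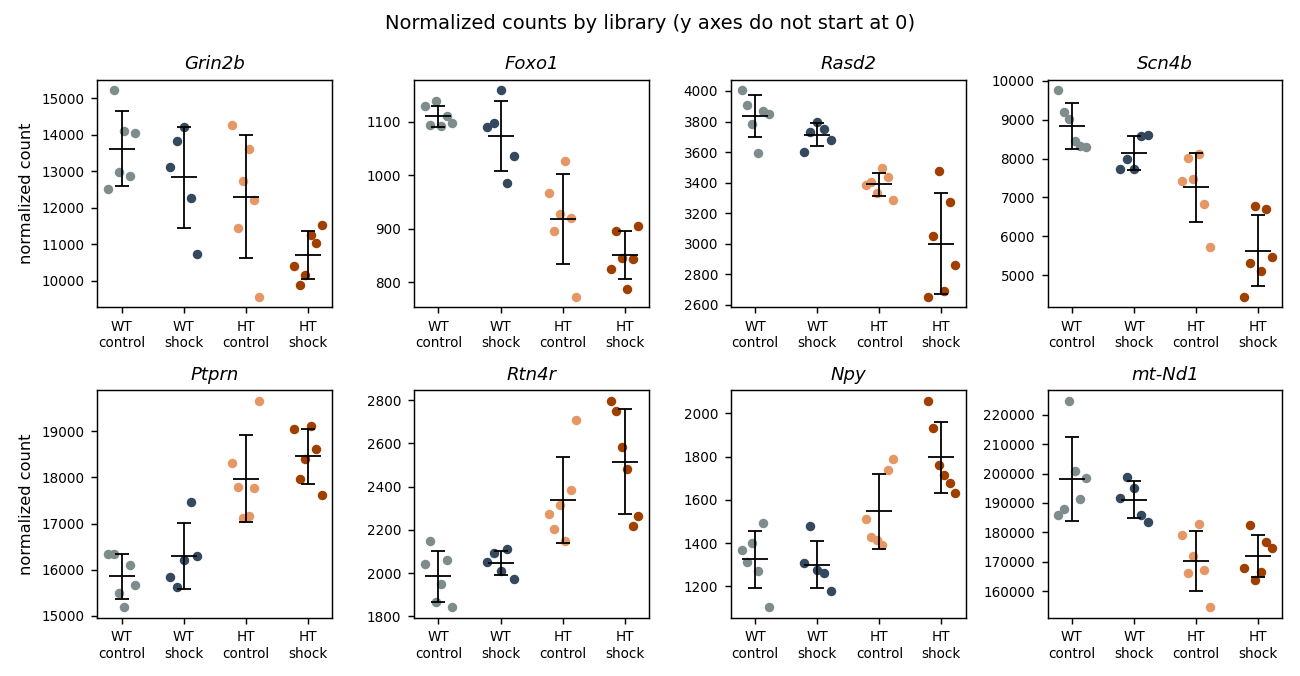
Normalized counts of 8 genes in each library, by group, where points are libraries and bars the mean with 1 SD. HT libraries are lower for Grin2b, Foxo1, Rasd2, Scn4b and mt-Nd1 and higher for Ptprn, Rtn4r and Npy, with no overlap between genotypes for Rasd2, Rtn4r and mt-Nd1.

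Fold changes of genes that passed were larger at low expression, with a median absolute log2 difference of 0.623 at a mean of 10 to 30 and 0.129 above 3000. Genes named here had a mean of at least 20, with predicted and clone names left out. The large differences of Slc6a3 and Sgk1 are given with their groups below. Mylk3, the cardiac myosin light chain kinase, ranged from 45.1 to 101 in HT libraries (median 81.1) and from 29.5 to 70.7 in WT libraries (median 46.5), a log2 difference of 0.708 (SE 0.134, limma adjusted p = 0.00359). Anpep, an aminopeptidase of blood vessels, was 0.685 higher, Mcm10, a DNA replication factor, 0.669 higher, and Dnah10, an axonemal dynein, 0.645 higher. The muscle genes Tcap (0.488) and Acta1 (0.449) and the Dickkopf-like gene Dkkl1 (0.452) were higher as well. Cort, the interneuron peptide cortistatin, had medians of 118 and 81.7 and a log2 difference of 0.544. Among genes that were lower, Mme, the membrane peptidase neprilysin, ranged from 178 to 460 in HT libraries (median 308) and from 378 to 541 in WT libraries (median 485), a difference of -0.647 (SE 0.128, limma adjusted p = 0.0052). Kcng3, a silent potassium channel subunit, differed by -0.903. Serpina3g (-0.903), Pax5 (-0.864), Ptpn7 (-0.796) and Il12rb1 (-0.702) were also lower, with HT medians of 15.8, 31.1, 17.3 and 28.1. Serpina3g belongs to a cluster of near-identical copies between which reads can be split, so its value is uncertain.

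Genes of striatal projection neurons were lower as a group. These are the inhibitory output neurons of the striatum, which carry dopamine D1 or D2 receptors and a characteristic cAMP signalling machinery. Of 22 genes tested, 18 were lower and none higher, against 8.19% of all genes, and their median log2 difference was -0.239. Their summed normalized counts ran from 59594 to 87351 in HT and from 85774 to 95026 in WT libraries. Scn4b, a sodium channel beta subunit, ranged from 4448 to 8126 in HT libraries (median 6742) and from 7738 to 9763 in WT libraries (median 8454). It differed by -0.411 (SE 0.068, limma adjusted p = 0.00224). Adcy5, the striatal adenylyl cyclase, differed by -0.235 and the synapse protein gene Syndig1l by -0.298. Named beyond the naming rule after their values were seen, the receptor genes Drd1 (-0.415), Drd2 (-0.399) and Adora2a (-0.46) and the phosphodiesterase gene Pde10a (-0.488) were lower too. Pdyn (0.074) and Isl1 (0.031) had positive differences that did not pass, and Tac1 (-0.104) and Arpp21 (-0.054) did not pass either.

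The median of the striatal list was -0.178 in control libraries and -0.32 in shock libraries. Averaged over its 22 genes, the deviation of each library from the overall mean ran from 0.078 to 0.24 in WT libraries. In HT libraries it ran from -0.523 to 0.152. The WT means were 0.165 ± 0.052 for control (SD, n = 6) and 0.092 ± 0.015 for shock libraries (SD, n = 5). The HT means were -0.016 ± 0.114 for control (SD, n = 6) and -0.226 ± 0.193 for shock libraries (SD, n = 6). The WT libraries were tightly grouped, while HT shock libraries spread widely below them. Between 15 and 18 members passed when single libraries were left out, and 16 were lower after the length and GC correction. Whether the striatal share of the dissected tissue differed between libraries was not tested.

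Midbrain dopamine neuron genes and thalamic genes also had lower members. Of 14 dopamine neuron genes, 6 were lower, against 8.19% of all genes, and none higher, with a median of -0.204. The median was -0.046 in control libraries and -0.39 in shock libraries. Slc6a3, the dopamine transporter, had a wide range of 62.7 to 577 in HT libraries (median 228) and 200 to 632 in WT libraries (median 416). Its difference of -0.984 (SE 0.303, limma adjusted p = 0.0376) was -0.265 in controls and -1.774 after shock. That call was lost without any one of HT control replicates 5 and 6, HT shock replicates 1, 2, 3 and 5, WT control replicates 2 and 4, and WT shock replicates 1 to 5, where adjusted p reached 0.0667. The dopamine neuron count dropped to 2 or 3 without any one of HT control replicates 5 and 6, HT shock replicates 1 to 5, WT control replicates 2 and 4, and WT shock replicates 1 to 5. The 2 members that passed in all these fits were Drd2 and Aldh1a1 (-0.165), a dehydrogenase of a dopamine neuron subset, and both are also expressed outside the midbrain. After the length and GC correction 3 members were lower, against 4.38% of all genes. In the thalamic list, 4 of 16 genes were lower and none higher: the transcription factor genes Tcf7l2 (-0.313) and Rora (-0.237), the vesicular glutamate transporter gene Slc17a6 (-0.262) and Plekhg1 (-0.298). All 4 passed in every fit without a library and after the length and GC correction.

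Cortical excitatory neuron genes went the other way in part. Of 18 genes tested, 6 were higher and 2 lower, with 4.99% and 8.19% of all genes as background, and the median was 0.052. That median was -0.009 in control and 0.131 in shock libraries, and 7 of the 18 differences were negative. Both lower genes and 5 of the higher genes passed in every fit without a library. After the length and GC correction 4 were higher and 1 lower, against 2.39% and 4.38% of all genes. Slc17a7, the vesicular glutamate transporter of cortex and hippocampus, ranged from 31007 to 39606 in HT libraries (median 34003) and from 28503 to 32510 in WT libraries (median 30904). It was 0.186 higher (SE 0.033, limma adjusted p = 0.00275), by 0.129 in controls and 0.248 after shock. The transcription factor genes Neurod6 (0.207), Lmo4 (0.156) and Fezf2 (0.201) were higher too. Fezf2 lost its call after the length and GC correction (adjusted p = 0.0852). Cortical list scores overlapped between genotypes, from -0.098 to 0.082 in HT and from -0.141 to 0.048 in WT libraries.

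Interneuron markers moved in both directions, with peptide genes among those that were higher. Of 24 markers, 5 were higher and 5 lower, the latter including Gad1, Gad2, Nos1 and Kcnc1, named after their values were seen. Under quantile normalization 2 were lower. Npy, neuropeptide Y, ranged from 1390 to 2058 in HT libraries (median 1696) and from 1103 to 1495 in WT libraries (median 1307), a log2 difference of 0.337 (SE 0.058, limma adjusted p = 0.00224). Sst, somatostatin, had medians of 4523 and 3729 and a difference of 0.262. Cck, cholecystokinin, had medians of 5756 and 4794 and a difference of 0.24. With Cort, these peptide genes passed in every fit without a library and after the length and GC correction. All 4 differences were larger in shock libraries (0.464 for Npy, 0.416 for Sst, 0.355 for Cck and 0.892 for Cort) than in controls (0.222, 0.122, 0.135 and 0.228), but no interaction passed. Of the 5 lower genes, Gad2 (-0.174), a GABA-synthesizing enzyme, and Nos1 (-0.154), the neuronal nitric oxide synthase, passed in every fit without a library. The lower count was 2 or 3 without any one of HT control replicates 5 and 6, HT shock replicates 1, 3, 4 and 5, WT control replicates 5 and 6, and WT shock replicates 1, 2, 3 and 5.

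Immediate early genes gave few calls and delayed activity genes more. Of 30 immediate early genes, the fast transcripts that follow neuronal firing, 1 was higher and none lower, a share below the 4.99% of all genes. That gene was Ier5 (0.327, SE 0.067, limma adjusted p = 0.0056), with medians of 2273 and 1796. The list's median was -0.002 in control and 0.307 in shock libraries. In the pooled fit 27 of 30 differences were positive, against 8783 of all 17118 genes. The levels spread widely within groups, with list scores from -0.276 to 0.355 in HT and -0.539 to 0.487 in WT libraries. Of 20 delayed activity genes, 5 were higher, against 4.99% of all genes, and 1 was lower, the opioid precursor gene Penk (-0.179), named after its values were seen. Penk lost its call without any one of HT control replicate 6, HT shock replicate 4, WT control replicate 3, and WT shock replicates 1, 2, 3 and 5. Among the higher genes were Vgf, Cort and Nptx2, a secreted pentraxin that clusters AMPA receptors, which was 0.242 higher with medians of 959 and 818.

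Glucocorticoid-induced genes, which respond to stress hormone, were lower in part. Of 26 genes tested, 7 were lower, against 8.19% of all genes, and none higher, and the median was -0.172. Hif3a ranged from 176 to 393 in HT libraries (median 263) and from 271 to 494 in WT libraries (median 407), a difference of -0.58 (SE 0.117, limma adjusted p = 0.00534). Klf9, a transcription factor, differed by -0.186. Sgk1, a kinase regulating ion transport, ranged from 1677 to 3663 in HT libraries (median 2028) and from 2263 to 5541 in WT libraries (median 3655), a difference of -0.644 (SE 0.18, limma adjusted p = 0.0256). Pdk4, a mitochondrial kinase, differed by -0.294 and lost its call without HT control replicate 6, WT shock replicate 2 or WT shock replicate 3. The list's count was 4 without HT control replicate 6 or WT control replicate 6 and 3 without WT shock replicate 3. After the length and GC correction 9 members were lower, against 4.38% of all genes. List scores ran from -0.182 to 0.727 in WT and from -0.266 to 0.147 in HT libraries. The 2 highest were WT shock replicate 3 (0.727) and WT control replicate 6 (0.502), which were also the highest in the chaperone list (0.476 and 0.413). The list median was -0.123 in controls, where no gene passed, and -0.217 after shock. Of 9 receptors and peptides of the stress axis, 2 were higher and 1 lower. Nr3c2, the mineralocorticoid receptor, was the lower gene (-0.152), and Crhbp, the protein that binds corticotropin-releasing hormone, was higher (0.291), both in every fit without a library.

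**Figure D3:**
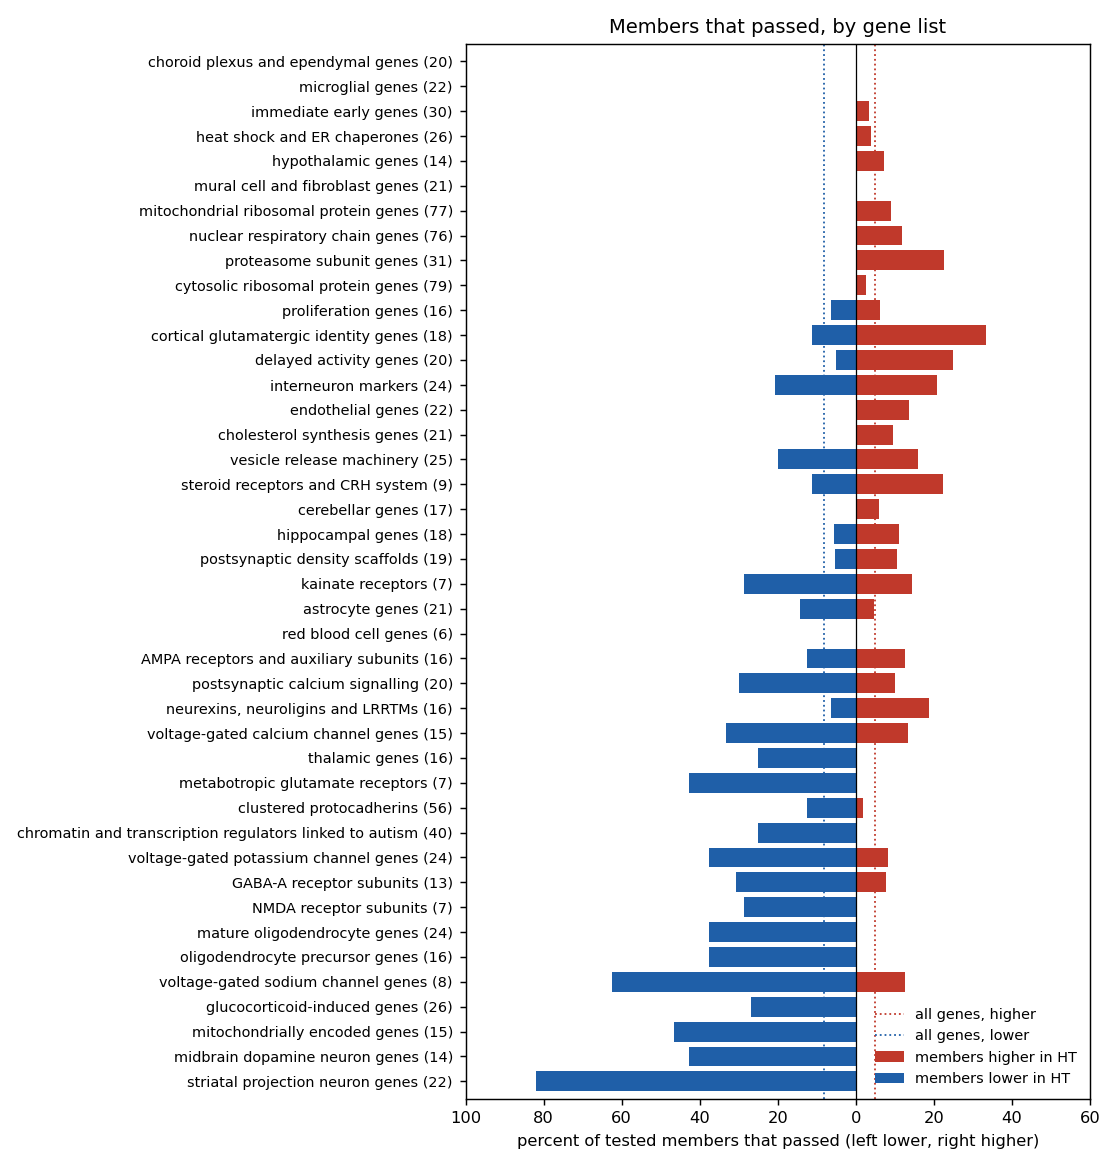
Bars give the percent of tested members of each gene list that were lower (left, blue) or higher (right, red) in HT libraries, with the number tested in brackets and lists ordered by median difference. Dotted lines mark the 8.19% of all genes that were lower and the 4.99% that were higher, and the striatal list reaches furthest left with 18 of 22 genes.

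Some oligodendrocyte lineage genes were lower and no member was higher. Of 24 genes of mature, myelin-forming oligodendrocytes, 9 were lower, against 8.19% of all genes, with a median of -0.118. The median was -0.055 in control and -0.238 in shock libraries. After the length and GC correction 6 were lower, against 4.38% of all genes. Mobp ranged from 27333 to 33813 in HT libraries (median 31144) and from 31193 to 42875 in WT libraries (median 36353), a difference of -0.222 (SE 0.046, limma adjusted p = 0.00653). Mbp, encoding myelin basic protein, had medians of 99484 and 115735 and a difference of -0.186. Gjc3 (-0.23) and Tspan2 (-0.238) were lower as well, and Tspan2 lost its call after the length and GC correction (adjusted p = 0.0715). The count was 5 without any one of HT control replicate 6, HT shock replicates 2 and 3, and WT shock replicate 5. Of 16 precursor genes, 6 were lower, with a median of -0.152 (-0.045 in control and -0.192 in shock libraries), and 5 after the correction. Among the 6 were Lhfpl3 (-0.164), Bcas1 (-0.18), the matrix protein gene Tnr (-0.195) and the phosphatase gene Ptprz1 (-0.223). List scores of both lists overlapped between genotypes.

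Of 21 astrocyte genes, 3 were lower and 1 higher, with 15 differences negative and 6 positive. The list median was -0.036, with 0.018 in control and -0.098 in shock libraries. The higher call was lost without any one of HT control replicate 5, WT control replicate 4, and WT shock replicates 1, 3 and 4, and after the length and GC correction 5 were lower, against 4.38% of all genes, and none higher. The 3 lower genes handle glutamate and bicarbonate: the glutamate transporter gene Slc1a2 (-0.194), the glutamine synthetase gene Glul (-0.149) and the bicarbonate transporter gene Slc4a4 (-0.3). None of 22 microglial genes passed in limma's test, with 2 at an unadjusted p under 0.05, although 21 differences were positive with a median of 0.168. None of 20 choroid plexus and ependymal genes passed either, with 10 at an unadjusted p under 0.05, 18 positive and a median of 0.204. For comparison, 5234 of all 17118 genes had an unadjusted p under 0.05 in limma's test, and 8783 had a positive difference. Their summed normalized counts ran from 7000 to 11767 in HT and 5859 to 10720 in WT libraries for microglia, and from 13544 to 24474 and 8128 to 18253 for choroid plexus. Of 22 endothelial genes, 3 were higher, of which Egfl7 (0.238), a secreted vessel protein, passed in every fit without a library. The count was 1 after the length and GC correction and without HT control replicate 6, HT shock replicate 4 or WT shock replicate 3. The part of these cell types in other results was not tested.

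Several mitochondrial genome transcripts were lower, and no nuclear gene of the respiratory chain was. Of 15 mitochondrially encoded genes, 7 were lower and none higher, with a median of -0.186, and all 7 passed in every fit without a library. mt-Nd1, a complex I subunit, ranged from 154492 to 182862 in HT libraries (median 169958) and from 183576 to 224751 in WT libraries (median 191736). The groups did not overlap, and the difference was -0.186 (SE 0.03, limma adjusted p = 0.00175), with -0.218 in controls and -0.152 after shock. mt-Cytb, the cytochrome b of complex III, ranged from 206467 to 243588 against 246575 to 274688 and differed by -0.143, but by 0 under quantile normalization, in which 4 members were lower with a list median of -0.047. mt-Nd4 (-0.197), mt-Nd5 (-0.328) and mt-Co1 (-0.194), subunits of complexes I and IV, were lower as well. Of the members that did not pass, mt-Co2, named after its values were seen, had a difference of -0.412 (SE 0.2, limma adjusted p = 0.168). After the length and GC correction 6 members were lower. The nuclear respiratory chain genes tested numbered 76, with a median of 0.073 and none lower. Of these 9 were higher, against 4.99% of all genes and 11.5% of genes with a mean above 3000. That count was unsteady: it was 1 without HT control replicates 5 or 6, HT shock replicate 3, WT control replicate 4 or WT shock replicate 3, and 27 without HT control replicate 1. Ndufa10 (0.115) was the 1 member that passed in every fit without a library. It did not pass after the length and GC correction (adjusted p = 0.051), in which 2 members were higher, against 2.39% of all genes.

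Differences of proteasome and ribosomal protein genes were mostly positive and small, and few passed. Of all 17118 genes, 8783 had a positive difference, and members of a list are not independent replicates. Of 31 proteasome subunit genes, 7 were higher, against 4.99% of all genes, and none lower, and 30 differences were positive with a median of 0.07. Psma5 (0.125), Psmc4 (0.131), Psmc3 (0.117) and Psmd3 (0.126) were higher, and Psmc3 and Psmd3 lost their calls after the length and GC correction (adjusted p = 0.177 and 0.0524), in which 4 members were higher. Leaving out HT control replicate 1 raised the proteasome count to 13, and leaving out WT shock replicate 2 or 3 lowered it to 4. Of 77 mitochondrial ribosomal protein genes, 7 were higher, against 4.99% of all genes, among them Mrps18a (0.153) and Mrps11 (0.164). After the correction 2 were higher, against 2.39% of all genes, and neither of these (adjusted p = 0.0515 and 0.322). That count was 14 without HT control replicate 1 and 13 without HT control replicate 4. Of 79 cytosolic ribosomal protein genes, 78 had positive differences with a median of 0.068, but 2 passed and the median after the correction was 0.005. That count was 9 without HT control replicate 1, 10 without HT control replicate 4, 6 without WT control replicate 1, and 0 without HT control replicates 5 or 6 or WT shock replicate 3. Of 26 chaperone genes, 1 was higher, the heat shock protein gene Dnajb5 (0.252).

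Glutamate and GABA receptor genes differed member by member. Of the 7 NMDA receptor subunit genes, Grin2b and Grin3a were lower, and none was higher. Grin3a, the non-conventional GluN3A subunit, had medians of 1419 and 1516 and a difference of -0.14 (SE 0.036, limma adjusted p = 0.0158). It lost its call after the length and GC correction (adjusted p = 0.0542). Grin1, the obligatory subunit, differed by 0.072 (SE 0.026, limma adjusted p = 0.0601) and Grin2a by -0.112 (SE 0.039, limma adjusted p = 0.0582). Grin2c (0.047), Grin2d (-0.001) and Grin3b (-0.131) were far from the threshold. Of 7 metabotropic glutamate receptor genes, 3 were lower, including Grm3 (-0.162) and Grm5 (-0.287). Both passed in every fit without a library and after the length and GC correction. Of 7 kainate receptor genes, 1 was higher, Grik5 (0.145), and 2 were lower, including the auxiliary subunit gene Neto2 (-0.231), which lost its call after the correction (adjusted p = 0.0892). Of 13 GABA-A receptor subunit genes, 4 were lower and 1 higher, with Gabrg3 (-0.167) and Gabrb1 (-0.202) among those lower and the extrasynaptic Gabrd higher (0.148). None of these 3 passed after the length and GC correction, with adjusted p from 0.0856 to 0.398.

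More voltage-gated ion channel genes were lower than higher. Of all genes, 8.19% were lower and 4.99% higher. Among genes with a mean above 3000, 18% were lower and 11.5% higher, and 10.7% were lower after the length and GC correction. Of 8 sodium channel genes, 5 were lower and 1 higher, with a median of -0.165. Scn3a ranged from 941 to 1596 in HT libraries (median 1289) and from 1379 to 2021 in WT libraries (median 1572), a difference of -0.341 (SE 0.069, limma adjusted p = 0.00546). Scn1a, the pore subunit of fast-spiking interneurons, differed by -0.204. After the length and GC correction 4 sodium channel genes were lower and none higher. Of 24 potassium channel genes, 9 were lower and 2 higher. Kcnq3, the M-current subunit, had medians of 5064 and 6614 and a difference of -0.327 (SE 0.056, limma adjusted p = 0.00224). Kcnb2 (-0.314) and Kcna2 (-0.186) were lower, and 5 were lower after the correction. Of the 2 higher genes, Kcnf1 (0.159) passed in every fit without a library. Of 15 calcium channel genes, 5 were lower, including Cacna1c (-0.159), Cacna1e (-0.21) and Cacnb4 (-0.266), and 2 were higher, of which 1 passed in every fit without a library and none after the correction. Cacnb2 (-0.163) lost its call after the correction (adjusted p = 0.22).

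Presynaptic and postsynaptic genes went in both directions. For the counts that follow, 4.99% of all genes were higher and 8.19% lower. Among all genes with a mean above 3000, those shares were 11.5% and 18%. Of 25 vesicle release genes, 4 were higher and 5 lower. Stx1a, the syntaxin of the fusion complex, ranged from 4749 to 6608 in HT libraries (median 5704) and from 4214 to 5157 in WT libraries (median 4626), a difference of 0.276 (SE 0.048, limma adjusted p = 0.00224). Syp, synaptophysin, was 0.137 higher and Vamp1, a synaptobrevin, lower (-0.176), though not after the length and GC correction (adjusted p = 0.0818). The lower count was 3 without HT shock replicate 3 or WT shock replicate 2. Of 20 postsynaptic calcium signalling genes, 2 were higher and 6 lower. Nrgn, the calmodulin-binding neurogranin, had medians of 28357 and 24018 and was 0.236 higher. Ppp3ca, the calcineurin catalytic subunit, was lower (-0.09, adjusted p = 0.208 after the correction), as was Rasgrf2 (-0.149), a calcium-activated Ras exchange factor. The lower count was 2 or 3 without any one of HT shock replicates 2, 3 and 5, WT control replicates 2, 4 and 6, and WT shock replicates 1 to 3, and 3 after the correction. Of 19 postsynaptic scaffold genes, 2 were higher and 1 lower, the lower gene being Homer2 (-0.26). Homer2 passed in every fit without a library, whereas the higher count ran from 0 to 4 over those fits, with 4 without HT control replicate 4, and the lower count reached 4 without HT control replicate 1 or WT control replicate 1. Of 16 synaptic adhesion genes, 3 were higher, including the calsyntenin gene Clstn1 (0.105), and 1 was lower, Nrxn3 (-0.169). The higher count ran from 1 to 4 and the lower from 1 to 4 without single libraries, with 4 lower without HT control replicate 1 or 4. After the correction 1 adhesion gene and 1 scaffold gene were higher, and 1 of each was lower.

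Some chromatin genes were lower, while clustered protocadherins gave a share near that of all genes. Of 40 chromatin and transcription regulators linked to autism, 10 were lower, against 8.19% of all genes, and none higher, with a median of -0.088. In every fit without a library 4 were lower, against 4.48% of all genes. Kmt5b (-0.185) and Med13 (-0.246) passed after the length and GC correction, whereas Kmt2e (-0.156) did not (adjusted p = 0.106). In all, 3 members were lower after it, against 4.38% of all genes. The uncorrected count of 10 was 5 or 6 without any one of HT control replicate 5, HT shock replicate 4, WT control replicate 4, and WT shock replicates 1 to 3. Of 56 clustered protocadherins, 7 were lower, against 8.19% of all genes, and 1 higher, with the lower count moved by many single libraries to between 2 and 8. After the correction 4 were lower. Pcdhb13 (-0.305) and Pcdhb16 (-0.36) were lower and Pcdhgc4 (0.212) higher. These genes are similar in sequence, and reads can be split between them.

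**Figure D4:**
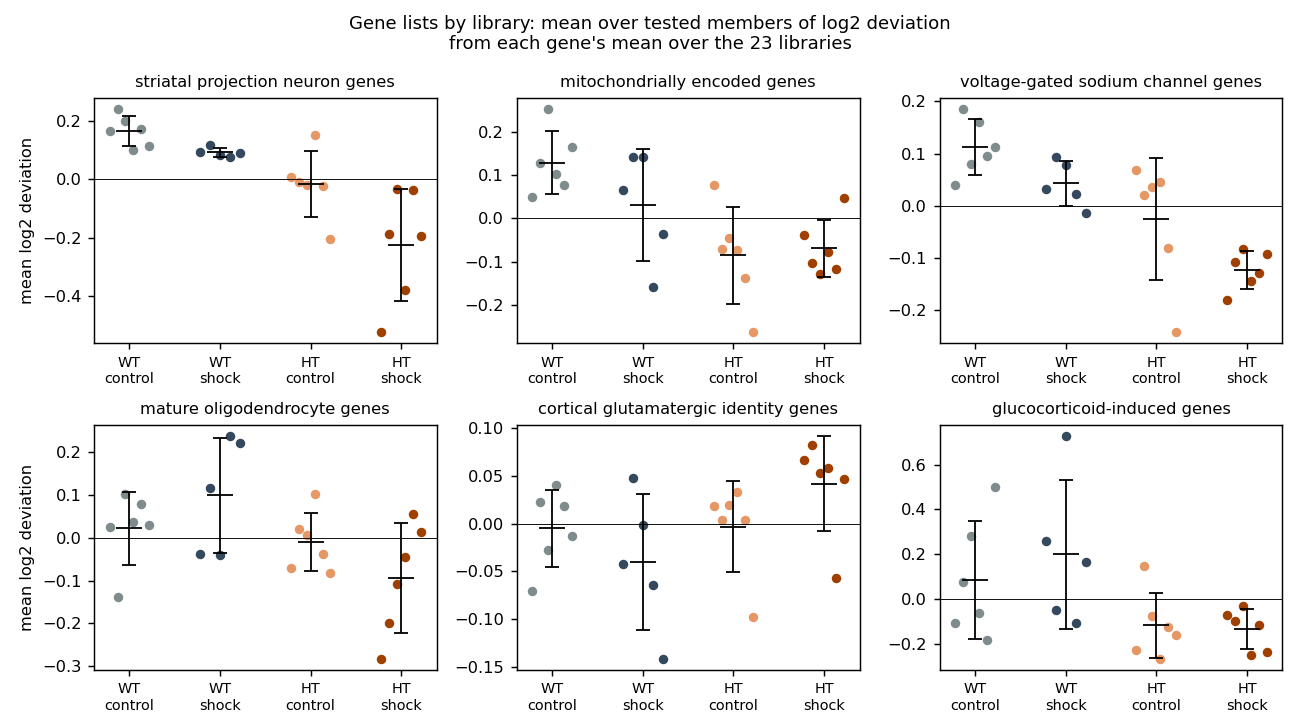
For 6 gene lists, each point is a library's mean over the tested members of the log2 deviation from each gene's mean over all 23 libraries, by group, with bars for the mean and 1 SD. HT shock libraries lie lowest in the striatal list (-0.226 ± 0.193), WT libraries are closely grouped there, and the glucocorticoid-induced list spreads widely among WT libraries.

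Most genes that passed in shock libraries alone had the same sign in control libraries. In the 12 control libraries alone no gene passed in limma's test, with 1349 genes at an unadjusted p under 0.05 and a smallest adjusted p of 0.466. In the 11 shock libraries alone 2932 genes passed (17.1%), 1254 higher (7.33%) and 1678 lower (9.8%). These fits share no library. Of the 2932 genes, 2687 (91.6%) had the same sign in control libraries, against 69.2% of all genes tested. Across all genes, which are not independent replicates, the differences in control and shock libraries had a Pearson correlation of 0.29. List medians differed in sign for some lists, such as endothelial genes (0.145 in controls and -0.156 after shock) and astrocyte genes (0.018 and -0.098). Of 269 genes with an unadjusted p under 0.01 in controls, 224 (83.3%) had the same sign after shock, and 95 passed there with the same sign and none with the opposite sign. Among the 2257 genes of the pooled comparison, 84.3% had the larger absolute difference in shock libraries, against 65.3% of all genes, and the median absolute difference was 0.128 in controls and 0.207 after shock. No gene passed the interaction test in limma, with 1101 genes at an unadjusted p under 0.05 and a smallest adjusted p of 0.552. Without HT control replicate 6, 1 gene passed it. With all libraries, a difference between treatments in the size of the genotype effect was therefore not shown for any gene.

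**Figure D5:**
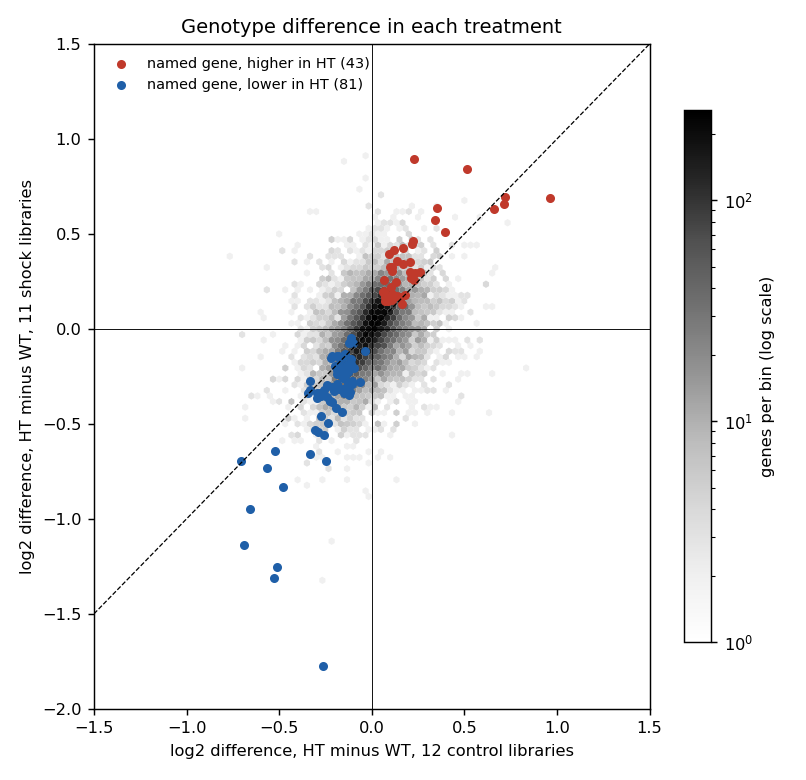
Log2 differences, HT minus WT, in the 12 control libraries (horizontal axis) and the 11 shock libraries (vertical axis), with grey shading for the number of genes per bin, coloured points for genes named in the text and a dashed line of equality. Of the 2257 genes that passed the pooled test, 2256 had the same sign on both axes, against 69.2% of all genes. The pooled difference combines both treatments, so passing it favours genes whose signs agree. The larger absolute difference was on the shock axis for 84.3% of the 2257 genes, against 65.3% of all genes.

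The remaining lists gave 4 or fewer calls each. AMPA receptor genes had 2 higher and 2 lower of 16, hippocampal genes 2 and 1 of 18, cerebellar genes 1 and 0 of 17, and hypothalamic genes 1 and 0 of 14. Cholesterol synthesis genes had 2 higher and 0 lower of 21 and proliferation genes 1 and 1 of 16. No mural cell or fibroblast gene of 21 passed in limma's test, with 3 at an unadjusted p under 0.05, and no red blood cell gene of 6, with 0. Of these 13 calls, those of Mcm10, the AMPA receptor auxiliary gene Cacng3 and the hippocampal gene Mpped1 held in every fit without a library. After the length and GC correction, AMPA receptor genes had 0 higher and 1 lower, hippocampal genes 1 and 1, cerebellar genes 1 and 0, proliferation genes 1 and 0, and hypothalamic and cholesterol synthesis genes none.

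Position in the genome was examined around the mutated gene and by chromosome. Within 5 Mb of Grin2b, 41 genes were tested, of which 1 was higher and 3 lower (9.76%, against 13.2% of all genes). They were Rerg (lower), Aebp2 (lower), Lmo3 (lower) and BC049715 (higher), all named after their values were seen. Rerg, a small GTPase gene, passed in every fit without a library. The count was 1 or 2 without any one of HT control replicates 5 and 6, HT shock replicates 1 to 5, WT control replicates 2, 4, 5 and 6, and WT shock replicates 2 and 3. On the X chromosome, 93 of 563 genes were lower (16.5%, against 8.19% of all genes) and 21 higher (3.73%). X-linked genes tested had a median transcript length of 3364 bases, against 3237 for all genes, and their GC content was not compared. After the length and GC correction 42 X-linked genes were lower (7.46%, against 4.38%). The part that length and composition play in the X share was not tested. Among the autosomes the largest lower share was on chromosome 18, at 13.2%, and 6.61% after the correction. The Y-linked helicase gene Ddx3y, named after its values were seen, was lower as well, and the other 8 Y-linked genes tested did not pass.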

How the data were processed

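RNA-seq libraries were made with a TruSeq Stranded mRNA kit, per the labels' protocols. Salmon 1.1.0, R 3.6.2, DESeq2 1.26.0 and GRCm38 are named, without roles, in the submitters' processing notes. The deposited table holds gene-level signal values, normalized counts with decimals, and the labels and file do not say how the authors scaled them. Whole reads could not be recovered, since 25.1% to 64.1% of low values per library came out whole within 0.1, so no count model was used. Of the table's columns, 1 matched no labelled sample and was not used. Testing was limited to the 17118 of 18578 genes whose mean over the libraries reached 10.

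Differences of log2(normalized count + 1) were fitted with limma 3.58.1 in R 4.3.3, with genotype and treatment as terms, an intensity trend and robust moderation, and Benjamini-Hochberg adjustment over all genes at 0.05. The log2 scale with a pseudocount of 1 understates changes of low genes. Control libraries, shock libraries and the interaction were fitted separately. The fit was tested on simulated data. Transcript lengths, GC content and coordinates came from GENCODE M21. Replicate numbers recur across groups but were not used to pair libraries. TMM factors were computed as an unweighted trimmed mean on the deposited values.

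Members, gene lists and alternatives were chosen with earlier results of these data known. Named genes are Grin2b, the 10 highest and 10 lowest differences that passed with a mean of at least 20 (predicted and clone names left out), the 5 smallest p-values each way, up to 4 passing members of each list (or, where none passed, its smallest p), and the 5 smallest p among genes without overlap. Other names were chosen after their values were seen: those described as such in the text, the remaining NMDA subunits, the region markers named without values and the mitochondrial genes of the closing observations. Some genes that the rule names are not reported here.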

Additional observations from a re-analysis of the deposited data

Results flagged for a closer look

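Single libraries were compared with the rest of their group for 136 genes and 10 gene lists named in the text, over 584 groups of 5 or 6 libraries. The measure is the gap from the highest or lowest library to its nearest neighbour, divided by the whole range of the group. In 46 groups (7.88%) the gap was above Dixon's 95% critical value, where chance gives about 1 in 20. The values below are normalized counts for genes and mean log2 deviations for list scores, each against that of the nearest library, followed by the gap ratio.

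HT control replicate 6 was highest of its group for Grin2c (4467 against 3866, gap ratio 0.777) and Ndufa10 (4844 against 4345, gap ratio 0.667). HT control replicate 6 was lowest of its group for Aldh1a1 (2622 against 2949, gap ratio 0.781), Klf9 (5669 against 6691, gap ratio 0.736) and Rasgrf2 (3424 against 4226, gap ratio 0.688). It was also lowest for Plekhg1 (765 against 1108, gap ratio 0.68), Gad2 (5890 against 7247, gap ratio 0.627) and Nos1 (2544 against 2925, gap ratio 0.626). It was also lowest for the score of the cortical glutamatergic identity genes (-0.098 against 0.004, gap ratio 0.779). HT shock replicate 6 was highest of its group for Ppp1r16b (5236 against 4884, gap ratio 0.911), Nptx2 (1076 against 983, gap ratio 0.627) and Slc1a2 (54542 against 47299, gap ratio 0.686). It was also highest for Kcnq3 (5383 against 5009, gap ratio 0.654). HT shock replicate 6 was lowest of its group for Grin1 (18583 against 20123, gap ratio 0.651), Grik5 (7270 against 8026, gap ratio 0.684) and Psmc4 (2671 against 2830, gap ratio 0.783). It was also lowest for Psmd3 (4019 against 4385, gap ratio 0.644). HT shock replicate 5 was lowest of its group for Ier5 (1874 against 2438, gap ratio 0.687), the score of the cortical glutamatergic identity genes (-0.057 against 0.047, gap ratio 0.748) and the score of the immediate early genes (-0.245 against 0.141, gap ratio 0.671). WT control replicate 4 was highest of its group for Cacng3 (2828 against 2519, gap ratio 0.693) and Gm10221 (145 against 0, gap ratio 1). WT control replicate 4 was lowest of its group for Gabrd (2079 against 2446, gap ratio 0.723). WT shock replicate 3 was highest of its group for Serpina3g (85.5 against 30.9, gap ratio 0.868) and Kcna2 (11988 against 11267, gap ratio 0.751). WT shock replicate 3 was lowest of its group for Grik5 (6710 against 7094, gap ratio 0.732). HT control replicate 1 was highest of its group for mt-Atp6 (41510 against 28292, gap ratio 0.673) and mt-Co2 (101563 against 54205, gap ratio 0.754). HT shock replicate 2 was lowest of its group for Etnppl (1148 against 1362, gap ratio 0.665) and mt-Co3 (14194 against 56170, gap ratio 0.681). WT control replicate 1 was lowest of its group for Glul (41795 against 45253, gap ratio 0.639) and Pcdhb16 (204 against 284, gap ratio 0.815). WT shock replicate 1 was highest of its group for Pax5 (158 against 61.8, gap ratio 0.793) and Gm10221 (167 against 0, gap ratio 1). WT shock replicate 2 was highest of its group for mt-Co1 (705784 against 649751, gap ratio 0.783) and mt-Cytb (266267 against 249979, gap ratio 0.827). WT shock replicate 4 was highest of its group for Anpep (205 against 114, gap ratio 0.811). WT shock replicate 4 was lowest of its group for Tac1 (775 against 919, gap ratio 0.808). HT control replicate 2 was highest of its group for Hif3a (393 against 273, gap ratio 0.658). HT control replicate 4 was highest of its group for Isl1 (122 against 92.5, gap ratio 0.643). HT shock replicate 1 was lowest of its group for Lmo3 (2538 against 2697, gap ratio 0.628). HT shock replicate 3 was highest of its group for Dnah10 (128 against 72.9, gap ratio 0.736). WT control replicate 2 was lowest of its group for the score of the mature oligodendrocyte genes (-0.139 against 0.024, gap ratio 0.674). WT control replicate 3 was highest of its group for mt-Cytb (274688 against 256942, gap ratio 0.644). WT control replicate 6 was highest of its group for Serpina3g (91.9 against 32.1, gap ratio 0.812). WT shock replicate 5 was lowest of its group for Cacng3 (2298 against 2592, gap ratio 0.743).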

How the results depend on the processing

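For the genotype effect over both treatments, the count of 2257 genes was 1227 with the replicate number of the title as a replicate block, 1158 after the length and GC correction, 3794 at an adjusted p of 0.1 and 347 at 0.01, and 0 in control libraries alone. Without single libraries it ran from 1446 to 3078. Under median centring, quantile normalization and TMM factors, 2222, 2120 and 2210 of the 2257 genes passed with the same sign, and the median of all genes stayed within 0.012. Same-numbered libraries did not deviate together (median correlation 0.0157, against 0.00371 for other pairs, with 5 of 33 pairs over 0.1), and with the library number as a replicate block 1888 genes passed. Grin2b differed by -0.197 (adjusted p = 0.0504) with the replicate block, -0.068 (0.184) after the correction, -0.204 at the 0.01 threshold and -0.156 (0.637) in controls alone. Genes within 5 Mb of Grin2b numbered 1 with the replicate block, without trend and robust moderation, or after the correction, 0 at 0.01 or in controls alone, and 1 to 6 without single libraries. The interaction, with no gene otherwise, gave 1 without HT control replicate 6. The sign turned for genes that did not pass: Grin2a after the correction (0.012), Grin2c in shock libraries (-0.034) and Grin2d, which was 0.001 under quantile normalization, 0.004 under TMM factors or the replicate block, 0 in the 4-group fit and with library weights, 0.018 in shock libraries alone and from -0.017 to 0.02 without single libraries. Isl1 ran from -0.012 to 0.066 without single libraries. mt-Atp6 was 0.051 with library weights, 0.021 after the correction, 0.362 in shock libraries and from -0.078 to 0.028 without single libraries, and mt-Co3 -0.187 in controls. mt-Cytb was at 0 under quantile normalization, which sets the top ranks to equal values. The cause of the other changes was not tested. Unknown depth leaves no counting error for single values.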

Other observations

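Outside the comparisons above, the processed pseudogene Gm10221 was listed at 0 in 3 of 12 HT libraries and 9 of 11 WT libraries, and between 77.3 and 175 in the others. Its log2 difference of 3.76 (SE 1.215, limma adjusted p = 0.0456) was lost without any one of 18 of the 23 libraries, and the gene was chosen after its values were seen. Some mitochondrially encoded genes that did not pass spread widely within a genotype: mt-Co3 ran from 14194 to 75803 in HT libraries and from 27480 to 81896 in WT libraries, mt-Co2 from 32151 to 101563 and from 43018 to 121206, and mt-Atp6 from 21867 to 41510 and from 20777 to 41930.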
